A study of Mus musculus with 4 samples.

Results

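The mitochondrial ribosomal protein genes were taken as the gene rows of the deposited count table whose symbol is Mrpl or Mrps followed by a number, leaving out 5 pseudogene rows marked -ps. This gave 78 genes of 47937 gene rows, of which 49 carry the large subunit letter (Mrpl) and 29 the small subunit letter (Mrps). All 78 passed the filter on low counts.

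Total RNA was sequenced from mouse embryonic fibroblasts (MEF cells), a culture of connective tissue cells of the embryo, with 2 libraries of untreated cells and 2 of cells exposed to 50 µM genistein for 24 h. Genistein is a plant isoflavone. The control libraries are labelled wild-type and untreated with no solvent named, and the genotype field of the exposed libraries holds only the treatment. The labels do not say whether the libraries of a group came from separate cultures, so the p-values measure the spread between these libraries, which may be technical.

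Mitochondria hold ribosomes of their own, which translate the few messenger RNAs encoded by mitochondrial DNA into core subunits of the respiratory chain. Their ribosomal RNAs are transcribed inside the organelle, whereas every protein of the mitoribosome is encoded in the nucleus, made in the cytosol and imported. The large subunit carries the peptidyl transferase centre, the stalk that recruits translation factors and the exit tunnel, and the small subunit carries the decoding centre. Some of these proteins have bacterial counterparts, and the others were added in the mitochondrial lineage. Transcription of nuclear mitochondrial genes is classically linked to nuclear respiratory factor 1 (NRF1), to the ETS family factor GABP, also called NRF-2, and to YY1.

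The members lie on 17 chromosomes, with 11 of them on chromosome 11. Promoter sequences from RefSeq (GRCm38.p6, 250 bases before to 50 after the start) matched 69 of the 78 members. The NRF1 core GCATGCGC, searched on both strands, was found in 8 of these 69 promoters (11.6%), against 2.8% of all 27025 promoters and 5.59% of the 10022 promoters of genes tested here. The ETS core CCGGAAG was found in 24 of 69 (34.8%), against 9.17% of all promoters and 18.9% of those of tested genes. The YY1 core AAGATGGCG was found in 8 of 69 (11.6%), against 1.5% and 3.26%. A base could count towards more than one motif. These are matches of letters and not binding sites. The NRF1 core was held by 7 of 43 large subunit promoters and 1 of 26 small subunit promoters, and the ETS core by 14 of 43 and 10 of 26.

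The TATA box TATAAA was found in 4 of the 69 promoters (5.8%), against 14.1% of all promoters and 6.89% of those of tested genes. The E-box CACGTG, the core bound by MYC among others, was found in 5 of 69 (7.25%), against 7.17% and 10.3%. The CCAAT box CCAAT was found in 39.1% of the members' promoters and in 39.2% of those of tested genes. The GC box GGGCGG was found in 49.3% and 65.9%. The median GC content of the 300-base promoter was 58.3% in members and 61.3% in tested genes.

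Shown here are the 100 bases before the start, 5′ to 3′ on the gene's strand, of the 7 members whose window holds a whole NRF1 or ETS core, out of the 25 with a promoter that were picked by the rule for named members, with the core and its reverse complement in capitals. Mrpl12 and Mrpl24, the members with the lowest and the highest fold change, are shown beside them and hold neither core in this window. Members outside that rule, such as Mrpl27 and Mrpl32, hold such a core in this window as well and are not shown. The windows are, on GRCm38.p6, chr11:120484537-120484636 (plus strand) for Mrpl12, chr9:98601680-98601779 (minus strand) for Mrps22, chr13:99344686-99344785 (plus strand) for Mrps27, chr9:105053168-105053267 (plus strand) for Mrpl3, chr11:58171564-58171663 (plus strand) for Mrpl22, chr7:105811088-105811187 (minus strand) for Mrpl17, chr17:46110904-46111003 (plus strand) for Mrps18a, chr5:31613851-31613950 (plus strand) for Mrpl33 and chr3:87919444-87919543 (plus strand) for Mrpl24.
Mrpl12: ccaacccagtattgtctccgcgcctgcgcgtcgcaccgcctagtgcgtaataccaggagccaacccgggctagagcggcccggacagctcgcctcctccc
Mrps22: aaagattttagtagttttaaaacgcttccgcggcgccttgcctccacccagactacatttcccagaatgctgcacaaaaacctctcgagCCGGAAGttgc
Mrps27: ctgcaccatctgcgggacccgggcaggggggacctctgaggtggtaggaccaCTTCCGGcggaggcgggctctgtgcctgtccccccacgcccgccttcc
Mrpl3: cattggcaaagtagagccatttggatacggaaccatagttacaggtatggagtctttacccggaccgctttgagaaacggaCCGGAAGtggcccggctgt
Mrpl22: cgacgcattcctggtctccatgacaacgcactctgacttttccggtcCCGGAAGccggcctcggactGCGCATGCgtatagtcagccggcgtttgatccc
Mrpl17: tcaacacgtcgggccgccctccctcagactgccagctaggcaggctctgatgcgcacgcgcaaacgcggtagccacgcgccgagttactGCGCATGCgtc
Mrps18a: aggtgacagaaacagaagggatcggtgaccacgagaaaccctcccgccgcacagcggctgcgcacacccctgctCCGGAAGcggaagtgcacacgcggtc
Mrpl33: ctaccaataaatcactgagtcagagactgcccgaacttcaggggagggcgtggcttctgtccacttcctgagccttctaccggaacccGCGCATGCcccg
Mrpl24: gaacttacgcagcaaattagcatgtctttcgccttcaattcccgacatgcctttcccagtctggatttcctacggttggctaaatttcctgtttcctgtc
Mrpl22 held an ETS core and an NRF1 core within 1 window. The median log2 fold change with genistein was -0.65 for the 8 members with an NRF1 core and -0.60 for those without, and -0.60 for members with and without an ETS core. It was -0.65 with and -0.60 without a YY1 core, -0.64 and -0.60 for the E-box, and -0.58 and -0.60 for the TATA box. Wider gaps were found for the CCAAT box (-0.67 with, -0.55 without) and the GC box (-0.56 with, -0.65 without). These differences were not tested.

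The study sequenced genistein-exposed and untreated cells to profile how repeat classes respond, and also analysed the altered genes for pathways. Here the same comparison was read for the mitoribosomal protein genes. Nearly the whole set of mitoribosomal protein genes was lower after genistein. Of the 49 large subunit members, 46 were lower, 1 was higher and 2 did not pass the test (adjusted p-value under 0.05 in edgeR's quasi-likelihood test, adjusted by Benjamini-Hochberg across every tested gene and repeat). Of the 29 small subunit members, 26 were lower, 1 was higher and 2 did not pass. Over all 16240 genes tested, 38.2% were called lower and 33.5% higher. Genistein changed a large part of the transcriptome, and the members' share called lower (92.3%) stood well above that background. All members but Mrpl23 had a mean normalised count over 100. Of the 11642 genes over that mean, 47.2% were called lower and 33.0% higher, a closer background that the members' share also exceeded.

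The size of the change was moderate, given here as the log2 of the genistein over the untreated level. The median log2 fold change was -0.63 in the large subunit and -0.65 in the small subunit. It was -0.03 over all genes tested and -0.10 over those with a mean normalised count over 100. A median member kept 64.3% of its untreated level. The middle 50% of members lay between -0.79 and -0.42, whereas the middle 50% of all genes lay between -0.43 and 0.44. With the thresholds of the study's methods (absolute log2 fold change over 1 and mean normalised count over 100 as well), 2 large and 4 small subunit members were lower and 0 were higher, against a background of 4.16% lower and 3.92% higher over all genes. That background is 676 and 637 genes, all among the 11642 with a mean over 100.

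In 74 of the 78 members both genistein libraries lay below both untreated libraries. This held for 44.6% of all genes tested, and for 6085 of the 11642 with a mean normalised count over 100. The exceptions among the members were Mrpl24 and Mrps6, whose genistein libraries lay above both untreated ones, and Mrpl14 and Mrpl23, whose groups overlapped. In bulk RNA, fewer cells expressing these genes and less RNA per cell cannot be told apart. The libraries were scaled from the counts alone, so each fall is relative to the other RNA of a library. RNA per cell was not measured.

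**Figure D1:**
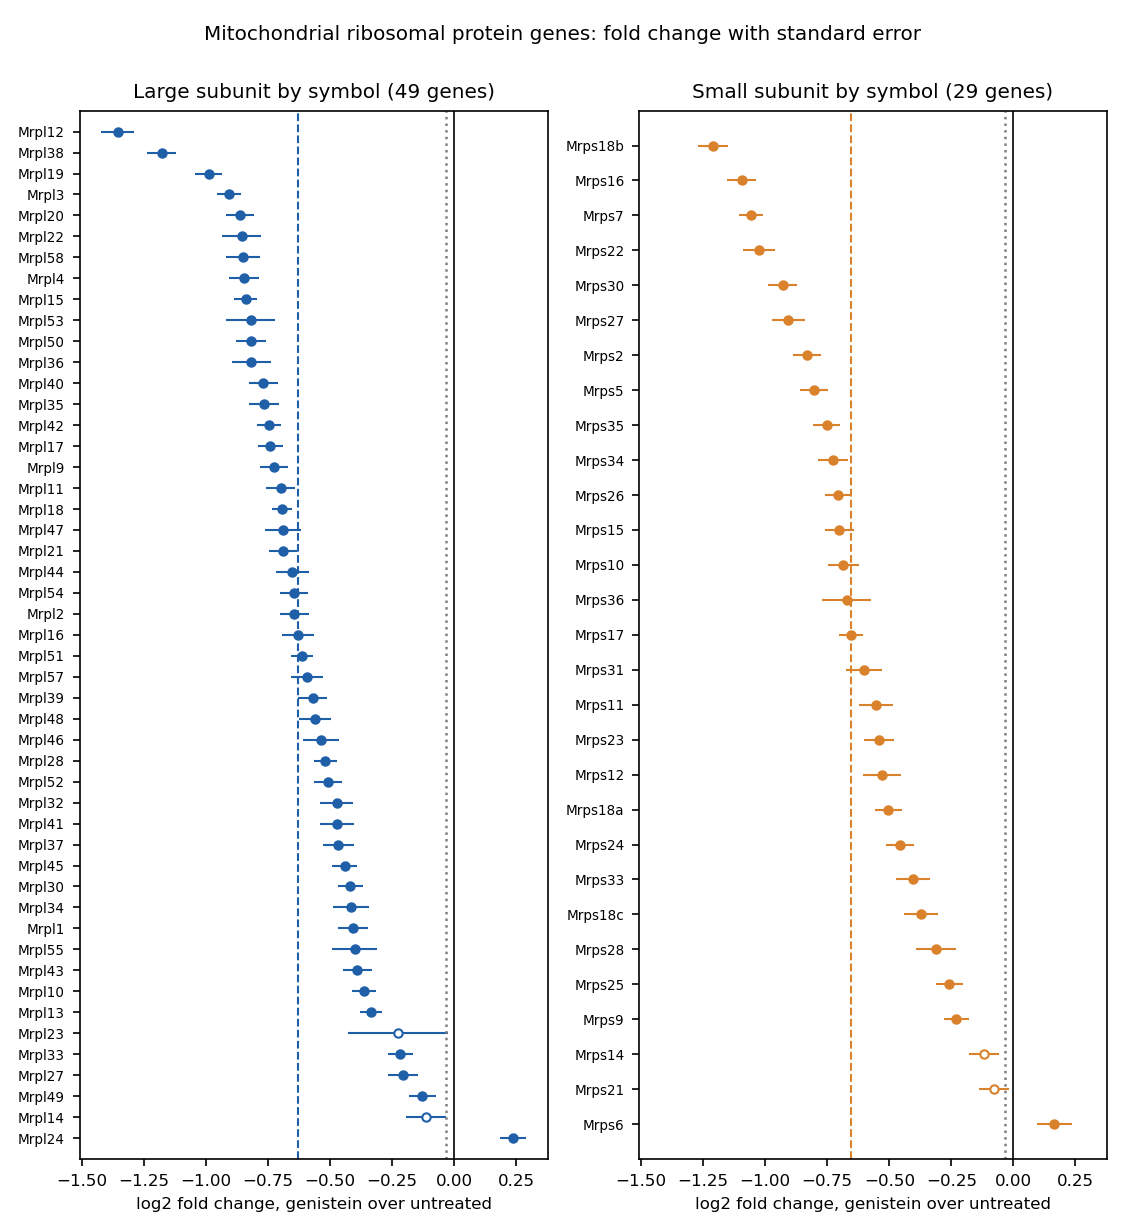
Log2 fold change of each of the 78 genes (x axis, genistein over untreated) with its standard error as a bar, in the 49 large and 29 small subunit members, filled where the adjusted p-value was under 0.05 and open where it was not. Dashed lines mark the subunit medians (-0.63 and -0.65) and the dotted line the median of all genes tested (-0.03), and all points but Mrpl24 and Mrps6 lie below 0.

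The strongest fall was in Mrpl12 (chromosome 11, 120484613 to 120489065), which encodes the L7/L12-type protein of the stalk that recruits translation factors to the ribosome. In normalised read counts, which are counts scaled to a common library size, it had 2223 and 1893 in untreated and 780 and 830 in genistein-exposed cells. The log2 fold change was -1.36 ± 0.07 (SE, adjusted p = 2.6e-11, edgeR), so that 39.1% of the untreated level remained. The groups did not overlap, and the untreated pair differed more from each other (0.23 on the log2 scale) than most members did.

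The other stalk genes fell less. Mrpl11 (chromosome 19), whose protein anchors the stalk base to ribosomal RNA, had normalised read counts of 1000 and 1017 in untreated cells and 606 and 638 after genistein, a log2 fold change of -0.70 ± 0.06 (SE). Mrpl10 (chromosome 11), whose protein carries the Mrpl12 copies, went from 1657 and 1653 to 1247 and 1329, a log2 fold change of -0.36 ± 0.05 (SE). All 3 stalk genes passed the test and none of their groups overlapped.

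Next in the large subunit was Mrpl38 (chromosome 11, 116131817 to 116138868), a protein with no bacterial counterpart. Its normalised read counts were 1225 and 1161 in untreated and 531 and 524 in genistein-exposed cells, with a log2 fold change of -1.18 ± 0.06 (SE, adjusted p = 2.9e-11, edgeR). The groups lay far apart beside the small differences within them.

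Mrpl19, Mrpl3, Mrpl20 and Mrpl22 followed, all with bacterial counterparts. Mrpl19 had 1336 and 1347 counts in untreated and 678 and 673 in genistein-exposed cells (log2 fold change -0.99). Mrpl3, whose protein reaches towards the peptidyl transferase centre, had 1679 and 1667 and then 881 and 904 (-0.91). Mrpl20, an early-binding large subunit protein in bacteria, had 1515 and 1392 and then 817 and 782 (-0.86). In each of these genes the distance between the groups was several times the distance between the libraries of a group.

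Of the 5 genes of the peptide exit tunnel looked at here, 3 were lower, 1 was higher and 1 was not called. Mrpl22, whose protein lines the tunnel, fell from 567 and 543 to 287 and 328 (log2 fold change -0.86 ± 0.08, SE). Mrpl17 fell from 1490 and 1471 to 884 and 888 (-0.74 ± 0.05, SE). Mrpl45, whose protein ties the tunnel exit to the inner membrane, fell from 1398 and 1447 to 1073 and 1021 (-0.44 ± 0.05, SE). These 3 fell, while Mrpl24, also at the tunnel exit, rose and Mrpl23 did not pass the test. The values of Mrpl24 and Mrpl23 are uncertain, for the reasons given below.

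Mrpl24 (chromosome 3, 87919506 to 87923672) was the only large subunit member called higher. Its normalised read counts were 964 and 946 in untreated and 1153 and 1099 in genistein-exposed cells, a log2 fold change of 0.24 ± 0.05 (SE, adjusted p = 0.00081, edgeR). Its annotated exons share 594 bases, 26.3% of their length, with Rrnad1 on the opposite strand, which rose as well (log2 fold change 0.33, adjusted p = 0.0011, edgeR). The strand setting of the counter is not given in the sources used here, so reads of the shared bases cannot be assigned to one of the 2 genes, and the part of the overlap in the rise was not tested.

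Mrpl23 (chromosome 7) was the lowest-counted member, with raw counts of 51, 64, 57 and 47 over untreated 1 and 2 and genistein 1 and 2, and a log2 fold change of -0.22 ± 0.20 (SE, adjusted p = 0.33, edgeR). The row Mrpl23-ps1 on chromosome 2, a pseudogene by name, had raw counts of 374, 359, 332 and 317. Reads of the 2 near-copies may have been split by the counter, so the level and the change of Mrpl23 are uncertain.

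Mrpl14, whose protein lies at the face that meets the small subunit, changed least in the large subunit. Its counts were 578 and 522 in untreated and 547 and 470 in genistein-exposed cells, and the groups overlapped (log2 fold change -0.11 ± 0.08, SE, adjusted p = 0.21, edgeR). It shares 106 exon bases with Tmem63b on the opposite strand, which rose (log2 fold change 0.72). Mrpl49 and Mrpl27 passed the test with small falls of -0.13 and -0.21, Mrpl49 only just (adjusted p = 0.040, edgeR).

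In the small subunit, Mrps18b, Mrps16, Mrps7 and Mrps22 fell by more than 1 on the log2 scale. Mrps18b (chromosome 17, 35910379 to 35916389) had normalised read counts of 1282 and 1307 in untreated and 531 and 588 in genistein-exposed cells, with a log2 fold change of -1.21 ± 0.06 (SE, adjusted p = 3.1e-11, edgeR). Mrps16 (chromosome 14, 20389304 to 20393634) had 1178 and 1138 and then 555 and 529 (-1.09 ± 0.06, SE). Its loss in people causes a disorder of combined oxidative phosphorylation deficiency, as does that of Mrps22.

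Mrps7 (chromosome 11, 115603925 to 115608036), whose protein organises the head of the small subunit, had 2140 and 2147 counts in untreated and 988 and 1075 in genistein-exposed cells (-1.06 ± 0.05, SE). Mrps22 (chromosome 9, 98588730 to 98601660) had 906 and 933 and then 429 and 475 (-1.03 ± 0.06, SE). Mrps27, whose protein has the repeats of RNA-binding pentatricopeptide proteins, had 872 and 807 and then 465 and 429 (-0.91). None of these groups overlapped. Mrps12, whose protein lines the decoding centre, fell less, from 517 and 487 to 362 and 334 (-0.53 ± 0.08, SE).

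Mrps6 (chromosome 16, 92058270 to 92112227) was the only small subunit member called higher, and only just. Its counts were 470 and 513 in untreated and 532 and 570 in genistein-exposed cells, a log2 fold change of 0.16 ± 0.07 (SE, adjusted p = 0.048, edgeR), and the call was lost under 5 of 10 alternative settings, with adjusted p-values from 0.06 to 0.37 in those 5. Its exons share 159 bases with Slc5a3 on the same strand, a myo-inositol transporter gene that rose from 1611 and 1729 to 2601 and 2643 (log2 fold change 0.65). The part of that overlap was not tested.

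Mrps21 and Mrps14 did not pass the test. Mrps21, the small subunit member with the smallest change, had 777 and 711 counts in untreated and 702 and 710 in genistein-exposed cells (log2 fold change -0.08 ± 0.06, SE, adjusted p = 0.27, edgeR). Mrps14 had 996 and 910 and then 857 and 899 (-0.12, adjusted p = 0.084, edgeR). In both, the genistein libraries lay below the untreated ones, but the distance between the group means was smaller than that between the untreated libraries.

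The 3 Mrps18 paralogues show how the letter in a symbol and the place of a protein differ. All descend from one ancestral S18 protein. Mrps18c and Mrps18b sit in the small subunit, whereas Mrps18a, and likewise Mrps30, sit in the large subunit of the solved structures. Mrps18b fell by 1.21 on the log2 scale, Mrps18a by 0.50 (1243 and 1277 to 862 and 916) and Mrps18c by 0.37 (557 and 563 to 424 and 442). Their standard errors were 0.06, 0.05 and 0.07, and differences between the paralogues were not tested.

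Mrps30 fell by 0.93 on the log2 scale (1090 and 1129 to 572 and 593). Mrps36, whose product is now placed in the 2-oxoglutarate dehydrogenase complex and not in the ribosome, fell by 0.67 (284 and 312 to 189 and 184). It has 3 pseudogene rows, of which 2 were tested and were lower (log2 fold changes -0.93 and -0.83) and 1 had no counts. With Mrps18a and Mrps30 counted as large and Mrps36 in neither, 48 of 51 large and 23 of 26 small subunit members were lower, with medians of -0.63 in both.

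The members were also split by their protein names into those with a bacterial counterpart and a mitochondria-specific class. By name Mrps18a and Mrps18b fall in the mitochondria-specific class, although they share the S18 ancestor of Mrps18c, which counts as having a counterpart. Of the 46 with a counterpart, 40 were lower, 2 were higher and 4 did not pass the test, with a median log2 fold change of -0.64. All 31 members of the mitochondria-specific class were lower, with a median of -0.61 and values from -1.21 (Mrps18b) to -0.13. The 6 members not called lower were all of the class with bacterial counterparts, 4 of them with negative fold changes, and the difference between the classes was not tested.

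The contrast between the subunits was made on sums per library, so that each library gives 1 value. Normalised read counts of the 49 large subunit genes summed to 55734 and 53804 in untreated cells and 35756 and 36442 after genistein. Those of the 29 small subunit genes summed to 29713 and 29199 and then to 18792 and 19208. The log2 change was -0.60 for the large and -0.63 for the small subunit. In the raw counts, all members together took 0.278% and 0.271% of the untreated libraries and 0.185% and 0.192% of the genistein libraries.

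The ratio of large to small was 1.88 and 1.84 in untreated cells and 1.90 and 1.90 after genistein, a log2 change of 0.031 with a replicate SD of 0.013. The direction of this small shift depended on the scale. Divided by the length of each gene's principal transcript before summing, the ratios were 2.14 and 2.08 in untreated and 2.13 and 2.11 in genistein-exposed cells, so that the groups overlapped (log2 change 0.0062). Divided by the length of all annotated exons, the log2 change was -0.022. The medians of the 2 subunits differed by 0.025. By each of these measures the difference between the subunits was small beside the fall that both showed.

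**Figure D2:**
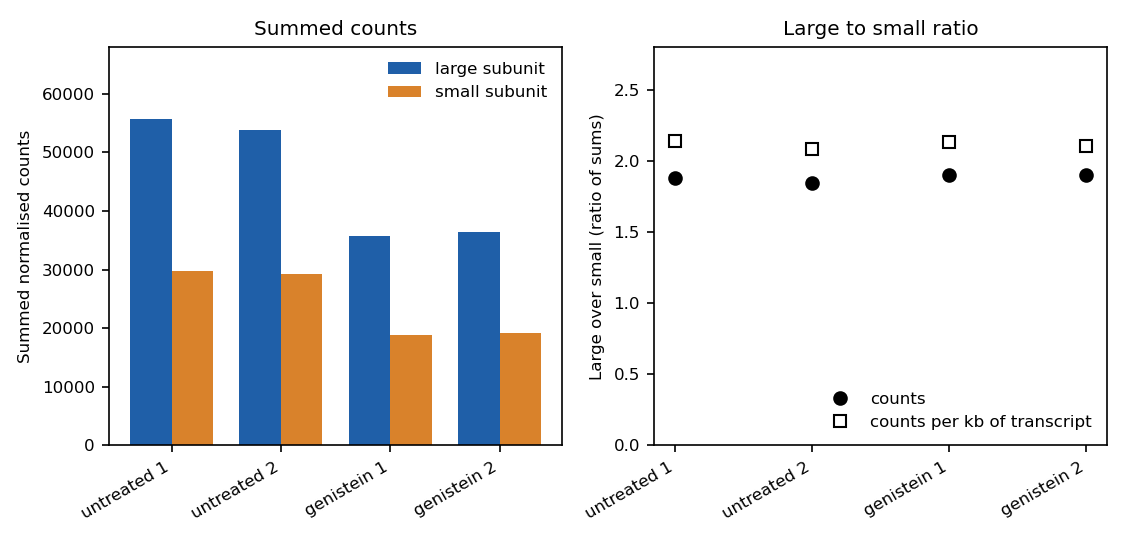
Left, normalised read counts summed over the large and the small subunit genes (y axis) in each of the 4 libraries, with bars from 0. Right, the ratio of the large to the small sum from counts (filled) and from counts per kilobase of transcript (open), which stays between 1.84 and 2.14 while both sums fall.

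Levels were compared between genes only as normalised read counts per kilobase of the principal transcript. On this scale Mrpl54 was highest in the large subunit of untreated cells (2802 per kilobase), followed by Mrpl33 (2731), and Mrps21 was highest in the small subunit (1525), followed by Mrps18a (1425). In untreated cells the libraries of Mrpl54 (2851 and 2752) and Mrpl33 (2771 and 2691) overlapped on this scale. After genistein Mrpl33 was the higher (2353 against 1793 per kilobase), as it fell by 0.22 and Mrpl54 by 0.65 on the log2 scale. Mrpl12 had rank 10 of the large subunit in untreated cells with 1564 per kilobase and had 612 after genistein. Mrpl17, with a principal transcript of 7300 bases, was near the bottom (203 per kilobase), and its place depends on the transcript length taken. By the length of all exons, Mrpl18 took the place of Mrpl33 and Mrps7 that of Mrps18a among the 2 highest of their subunit. Mrpl18, whose protein lies in the central protuberance, had 2383 and 2293 counts in untreated and 1430 and 1463 in genistein-exposed cells (log2 fold change -0.69).

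**Figure D3:**
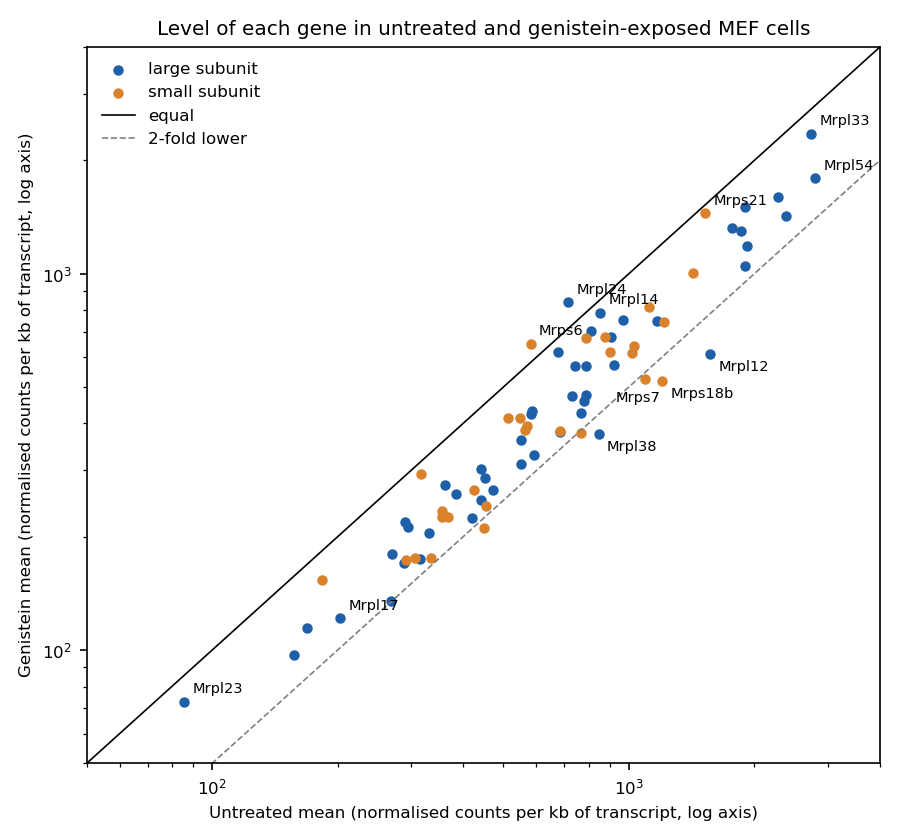
Mean normalised read counts per kilobase of the principal transcript in untreated (x axis) and genistein-exposed cells (y axis), both on log axes, with 1 point per gene. Most of the 78 points lie between the line of equal levels and the dashed line of a 2-fold fall, with 6 genes, Mrpl12, Mrps18b and Mrpl38 among them, below it and Mrpl24 and Mrps6 above equality.

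The standard errors were derived from the fold change and the edgeR test statistic. That test shares its estimate of spread across all tested entries, so similar standard errors do not by themselves show similar precision. Leaving out Mrpl23, raw counts of a member in a library ran from 172 to 2535, and the standard error of the log2 fold change from 0.04 to 0.10. The median difference between the libraries of a group was 0.05 in untreated and 0.07 in genistein-exposed cells on the log2 scale, and with Mrpl23 left out its largest value was 0.23. A fall of the median size was therefore many times the spread between replicates.

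Many mitoribosomal protein genes are short and lie close to other genes. Exon bases shared with another annotated gene were found in 33 members, and 3 members (Mrpl23, Mrpl48 and Mrps36) have pseudogene rows. The other 43 share neither, and 41 of them were lower, 0 higher and 2 not called, with a median log2 fold change of -0.63. In this set 26 of 26 large and 15 of 17 small subunit members were lower. At an unadjusted p under 0.05 the count called higher in it was also 0, since all 43 had negative fold changes. The highest share of exon bases in 1 other gene was in Mrpl53, with 88.0% in Gm42688 on the same strand, and both were lower (log2 fold changes -0.82 and -0.64). Mrps25 had 69.8% in Nr2c2 on the opposite strand (log2 fold change -0.12) and itself fell by 0.26. Mrps34 had 63.4% in Mapk8ip3 on the opposite strand, which rose by 0.38, and 37.0% in Nme3 on the same strand (-0.43), and itself had a log2 fold change of -0.73.

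A divergent neighbour was a protein-coding gene on the opposite strand. Its start lay at most 1000 bases upstream, or overlapped by at most 200 bases, as for Mrpl21, Mrpl27, Mrpl36, Mrpl44 and Mrps7. Such a neighbour was found for 23 of 78 members (29.5%), against 12.5% of the 12213 protein-coding genes tested. Of these neighbours, 22 were tested. The members of these pairs had a median log2 fold change of -0.64, whereas the neighbours had a median of -0.06, with 8 lower, 4 higher and 10 not called. The share of neighbours called lower (8 of 22) was near the background of 38.2%. Mrps18b fell by 1.21 while Ppp1r10, starting 45 bases away, had a log2 fold change of -0.06, and Mrpl2 fell by 0.64 while Klc4 rose by 1.24. In the pairs Mrpl32 and Psma2, a proteasome subunit gene, and Mrps27 and Ptcd2, both genes fell (-0.47 and -0.63, -0.91 and -0.83). Mrpl46 and Mrps11, a large and a small subunit gene on chromosome 7 whose heads overlap, share 173 exon bases and had log2 fold changes of -0.54 and -0.55.

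The other genes of the pathway were taken from lists of known function. Beside the background of 38.2% lower and 33.5% higher, mitoribosomal proteins that carry other symbols were lower in 5 of 5 cases, with a median log2 fold change of -0.61. Gadd45gip1, a large subunit protein, fell most (1868 and 1983 to 1021 and 996, -0.93), and Dap3, a GTP-binding small subunit protein, fell least (1725 and 1720 to 1531 and 1463, -0.20).

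Of 24 assembly factors, 18 were lower, 0 were higher and 6 did not pass the test, with a median of -0.41. Rcc1l, which acts in assembly of the large subunit, fell most (1101 and 1051 to 377 and 418, -1.44). The GTPase Noa1 (-0.95) and the large subunit rRNA methyltransferase Mrm3 (-0.94) fell as well. Malsu1, which holds off subunit joining by binding Mrpl14, did not pass the test (509 and 535, then 578 and 576, 0.14, adjusted p = 0.054, edgeR).

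Of 14 translation factors, 9 were lower and 0 were higher, with a median of -0.31. The elongation factors Gfm1 (-0.98), Tsfm (-0.91) and Tufm (-0.86) fell, while the initiation factors Mtif2 (0.06) and Mtif3 (-0.06) did not pass the test. Of 17 mitochondrial aminoacyl-tRNA synthetases, 15 were lower and 0 were higher, with a median of -0.46. Yars2 fell from 950 and 931 to 369 and 364 (-1.36). Lars2 had the lowest value of the list (-1.39, adjusted p = 0.024, edgeR), but its counts of 3089 and 402 in untreated and 838 and 500 in genistein-exposed cells overlapped. Without untreated library 1 its log2 fold change was 0.74, so the fall rests on that library, and without it 12 of the 17 synthetases were lower and 2 were higher.

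Of 15 regulators of mitochondrial gene expression, 12 were lower and 1 was higher, with a median of -0.54. The genes for factors tied to the NRF1, ETS and YY1 cores fell: Gabpa from 2880 and 2856 to 1558 and 1723 (-0.81), Nrf1 from 1785 and 1760 to 1061 and 1077 (-0.73) and Yy1 from 2449 and 2392 to 1921 and 1999 (-0.30). Myc fell most (2850 and 2663 to 1221 and 1324, -1.12). Tfam, whose protein packages mitochondrial DNA and acts in its transcription, fell by 0.64. The coactivator gene Ppargc1a rose at very low counts, with raw counts of 7 and 6 and then 20 and 10 (1.11, adjusted p = 0.04, edgeR), and the call was lost in 4 of 10 alternative settings. Whether these regulators had a part in the falls of the members was not tested.

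Cytosolic ribosomal protein genes were lower as well, in 80 of 82 cases with 1 higher, and a median of -0.53. Rpl22l1 fell most (2122 and 2076 to 698 and 698, -1.59), and Rps27l rose slightly (3867 and 3868 to 4086 and 4313, 0.12), a call lost with DESeq2 and without genistein library 2. Of 77 nuclear genes of oxidative phosphorylation, 54 were lower and 9 were higher, with a median of -0.30. Cyc1, which encodes cytochrome c1, fell most in that list (4144 and 3933 to 2042 and 2129, -0.95). The largest rise in it was in Cox6b2, with raw counts of 0 and 0 in untreated and 11 and 10 in genistein-exposed cells.

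**Figure D4:**
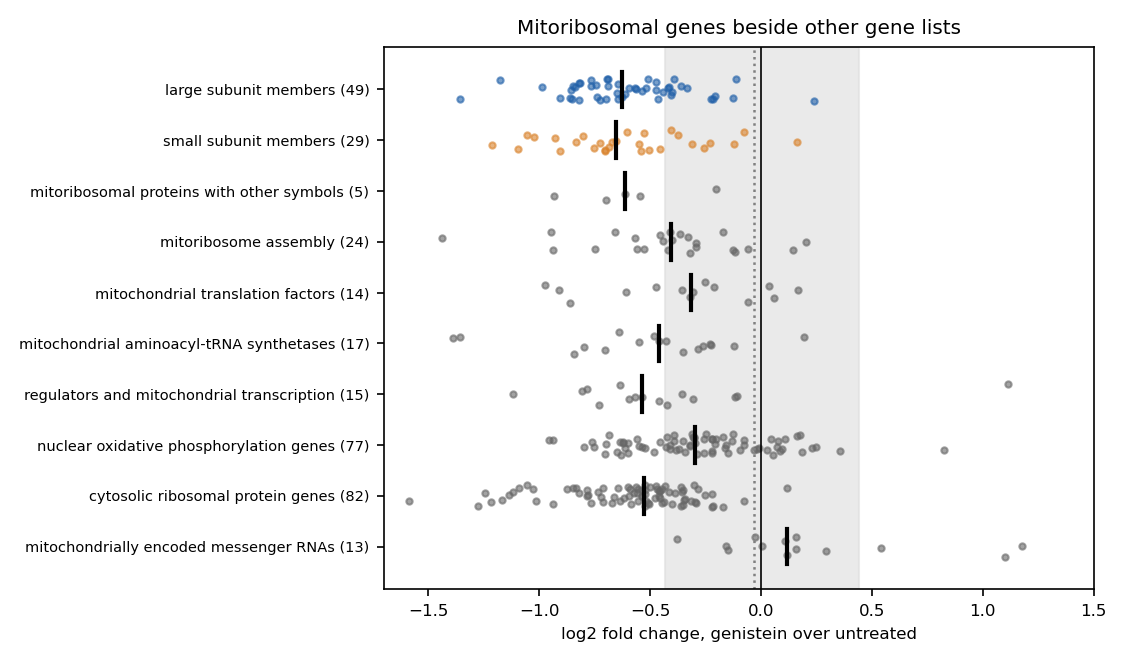
Log2 fold change (x axis, genistein over untreated) of each gene in the 2 subunits and 8 further lists, with the number tested in brackets, a black bar at each median and the middle 50% of all genes shaded around their median (dotted). All lists but the mitochondrially encoded messenger RNAs have medians below that of all genes, and Cox6b2 lies beyond the plotted range.

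The RNA made inside the organelle did not follow the nuclear genes. Of the 13 mitochondrially encoded messenger RNAs, which mitoribosomes translate, 2 were lower, 7 were higher and 4 did not pass the test, with a median log2 fold change of 0.12. The transcript mt-Nd5 rose most (6183 and 6349 to 15722 and 12625, 1.18) and mt-Nd1 fell most (44452 and 42021 to 33213 and 33241, -0.38). The ribosomal RNA of the small subunit, mt-Rnr1, rose from 44449 and 43095 to 103072 and 89359 (1.14), and that of the large subunit, mt-Rnr2, from 321194 and 302875 to 571390 and 528665 (0.82). The libraries were depleted of ribosomal RNA, and the part of the depletion step in these 2 values was not tested.

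Library totals over genes and repeats ran from 28591958 to 31464284 counts. Of 8 fibroblast markers, 7 were tested, 6 of them were lower and 1 was higher, and Thy1 had 0 counts in every library. Their summed normalised counts were 421357 and 433573 in untreated and 404432 and 394664 in genistein-exposed cells, so these genes were abundant in all 4 libraries. Of 4 epithelial markers only Krt14 was tested, and the list's sum went from 718 and 672 to 118 and 108, with Epcam and Krt5 at 0. Of 4 blood markers Cd68 and Csf1r were tested and rose, and the sum went from 210 and 192 to 546 and 570, with Ptprc at 0 or 1 count. Of 3 muscle markers Des was tested and rose, and the sum went from 37 and 30 to 284 and 264, with Ckm at 0. Endothelial and neural sums did not exceed 23.3. The part of these marker changes in the falls of the members was not tested.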

How the data were processed

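Ribosomal RNA-depleted total RNA libraries were made from MEF cells with a stranded kit. Per the study's methods, the authors used Trim Galore for trimming, STAR for alignment to mm10 with multiply aligned reads kept, and TEtranscripts for counting over genes and repeats. The deposited counts are raw and whole. The strand option of the counter is not given in the sources used here.

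The table of genes and repeats was scaled by TMM after filterByExpr had left 16240 genes and 1118 repeats. Groups were compared with edgeR 4.0.16 (quasi-likelihood test) in R 4.3.3, with Benjamini-Hochberg adjustment over the 17358 kept entries. A row that names no gene held 0.00208% to 0.00314% of the counts and was left out. Normalised counts are counts rescaled to the mean effective library size. Coordinates, exons and principal transcripts are those of GENCODE on GRCm38, a later release than the one counted. The fit was also run on data simulated with its own estimates of spread. Such data cannot show how well the libraries of a group capture the spread between cultures.

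The members and lists were chosen with earlier results of these data known. The text names, in each subunit, up to 6 lower and 4 higher members with the largest fold change, the 2 with the highest level, the one with the smallest change, and a list of single members, with others added after their values were seen. From each other list it names the largest rise and fall and further examples chosen after their values were seen. Alternatives covered scaling, filtering, DESeq2 1.42.0, the study's thresholds, subunit assignment, length, the replicate block and the removal of each library in turn. Counts are reads, not molecules, so intervals cover the spread between libraries.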

Additional observations from a re-analysis of the deposited data

How the results depend on the processing

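Of 280 fold changes of the 28 members named by rule, recomputed under 10 alternatives each, 274 kept their direction and side of the threshold, 5 lost the call and 1 gained it. Those that lost it were all of Mrps6, so the count of small subunit members called higher was 0 with RLE size factors, with no filter on low counts and with DESeq2, and ran from 0 to 1 when each library was left out (0 without untreated replicate 1 and without genistein replicate 2). Mrpl14 was called lower (-0.22) only without genistein replicate 1. Over all members, the count of large subunit members called lower went from 46 to 45 with TMM from genes alone. It was 44 with library totals and with DESeq2, while the small subunit count stayed at 26 in these settings. With the study's thresholds the counts lower were 2 large and 4 small, and 0 were higher in either.

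Scaling moved all genes together. The large subunit median was -0.59 with TMM from genes alone and -0.56 with library totals, the small subunit median -0.58 with library totals, and the median of all genes ran from -0.04 to 0.04 over the scalings. Relative to that median the large subunit lay at -0.60 and the small at -0.62 under every scaling. Leaving out each library gave large subunit medians from -0.66 to -0.58. The log2 change of the large to small ratio was 0.0062 per kilobase of principal transcript, an alternative added after seeing the data, and -0.022 per kilobase of all exons, where its direction turned.

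Replicate numbers are shared by the groups, and the labels do not say what they stand for. The deviations of same-numbered libraries from their group means had a correlation of -0.016 over 12244 entries. A value from so few libraries cannot show whether same-numbered libraries share a culture or batch. With a replicate block, 46 large and 26 small subunit members were lower and 1 of each was higher, with medians of -0.63 and -0.65. In the other lists, DESeq2 lowered the assembly factors called lower to 13 and the aminoacyl-tRNA synthetases called lower to 11, library totals raised the oxidative phosphorylation genes called higher to 15, and the mitochondrially encoded messenger RNAs called lower ran from 1 to 4 and those called higher from 5 to 7. With 2 libraries a group, small changes such as those of Mrps6, Mrps14 and Mrps21 could not be settled at this depth and replication.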
